A study of Mus musculus with 24 samples.

Results

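The AU-rich element pentamer ATTTA was present at least 2 times, overlapping copies included, in the deposited sequence of 148 AGO2 peaks, 1.01% of the 14634 peaks in the table. They lay in 143 of 4165 genes, and Arl5b, Cd274, Clec2i, Inpp4a and Iws1 had 2 such peaks each. The peaks were chosen by these letters alone, without their reads. Of the 148 peaks, 135 held 2 copies, 11 held 3 and 2 held 4. A further 1548 peaks held 1 copy and 12938 held none.

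Argonaute 2 (AGO2) is the protein that carries a microRNA to its target messenger RNA. In HITS-CLIP the protein is crosslinked to RNA, immunoprecipitated, and the bound RNA fragments are sequenced. The cells were CD4+ T cells of C57BL/6 mice, taken from spleen and lymph nodes and activated in culture for 4 days in 20 U/mL IL-2 with CD3 and CD28 antibodies at 1 µg/mL. The 24 libraries comprised 12 from wild-type cells and 12 from cells without miR-155, which lymphocytes induce upon activation. Each genotype had 6 libraries on each of 2 linkers at the 3' end. The first 6 replicate numbers paired knockout libraries on linker 1 with wild-type libraries on linker 2, and the remaining 6 were the reverse. The deposited table gave 1 pooled value per genotype and peak, so no value has a replicate error, and values by linker could not be compared.

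AU-rich elements are stretches in the 3' untranslated region (3' UTR) of short-lived messenger RNAs, many of which encode cytokines, growth regulators and proto-oncogenes. Proteins of the ZFP36 family bind them and recruit the deadenylation machinery, which shortens the poly(A) tail before decapping and decay, while proteins such as HuR bind them and stabilise the transcript. Repeated pentamers mark the classical elements, and overlapping repeats are typical of cytokine transcripts. A microRNA acts on the same regions through its seed (bases 2 to 8), and AGO2 recruits much of the same deadenylation machinery.

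Short windows show how the pentamers, in capitals, were arranged. Positions are on GRCm38 with GENCODE M21, and each window reads 5' to 3' on the strand of the transcript, in the annotated 3' UTR. The first 5 windows show overlapping copies, in which the last A of 1 pentamer is the first A of the next, and the following 3 show copies set apart. The Tnf and Cyfip2 windows each hold 3 of the 4 copies of their peak.
Tnf peak 2, chr17:35199690-35199719, minus strand: tatttgcacttattATTTAttATTTATTTA
Cyfip2 peak 1, chr11:46194011-46194040, minus strand: acaatgaATTTAcATTTATTTAtggtgaac
Inpp4a peak 8, chr1:37410577-37410606, plus strand: gcATTTAaatacttttATTTATTTAtttgt
Pik3cd peak 1, chr4:149650456-149650485, minus strand: tgtttacactggtaATTTATTTAtgactcg
Gata3 peak 7, chr2:9857507-9857536, minus strand: gttgtataaATTTATTTActgctagtgtta
Il12rb2 peak 11, chr6:67291325-67291354, minus strand: ATTTAattctcagctcattaaactcATTTA
Nr4a1 peak 4, chr15:101274702-101274731, plus strand: ATTTAtatttgtgtattttcctggATTTAt
Btg2 peak 15, chr1:134076017-134076046, minus strand: aATTTAtttgtagatgtgtgcaatATTTAc

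Sites of microRNA families lay close to these pentamers in several peaks. The next windows show the site in capitals, with pentamers in lower case beside or across it, except in Sla, whose nearest pentamer was 18 nt away. The sites were those of miR-25/92 in Btg2, miR-21 in Ski, miR-19 in Mastl, Socs3 and Tnf, miR-23 in Satb1 and miR-155 in Cd274, Wsb1, Sla and P2ry10. The P2ry10 match had only 6 nt. Cd274 peak 22 has no genome position here, because its sequence did not match a transcript of the gene in that annotation.
Btg2 peak 15, chr1:134076012-134076041, minus strand: atttgtagatgtGTGCAATAtttactgttc
Ski peak 3, chr4:155157026-155157055, minus strand: tacacttttgttATAAGCTAtttaaaacca
Mastl peak 5, chr2:23118013-23118042, minus strand: aaatttaatttaTTTGCACAtggttacatg
Socs3 peak 2, chr11:117966149-117966178, minus strand: ttcaactcagacTTTGCACAtatatttata
Tnf peak 2, chr17:35199696-35199725, minus strand: tatttataTTTGCACttattatttattatt
Satb1 peak 8, chr17:51739226-51739255, minus strand: taaggaaaagaaAATGTGAAacacaattta
Cd274 peak 22: tgtcaatgtattGCATTAAtttaataaata
Wsb1 peak 1, chr11:79240128-79240157, minus strand: ttggacttttaaAGCATTAtttatacacca
Sla peak 17, chr15:66780914-66780943, minus strand: ttctaagtgggaAGCATTAcactttgccaa
P2ry10 peak 2, chrX:107103663-107103692, plus strand: ttaaaatttatgGCATTAtattagttacaa

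The microRNAs that these sites match are given below with the seed in capitals. The sequences are RefSeq's on GRCm38.p6.
miR-155-5p: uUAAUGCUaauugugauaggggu
miR-19b-3p: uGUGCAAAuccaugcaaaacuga
miR-92a-3p: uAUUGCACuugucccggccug
miR-21a-5p: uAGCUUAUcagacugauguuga
miR-23a-3p: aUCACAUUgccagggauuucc

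Of the 148 peaks, 144 were placed on transcripts and 143 of these lay in an annotated 3' UTR. AI504432 peak 2 fell on a transcript that has no annotated coding sequence. Cd274 peak 22, Cep55 peak 3, D14Abb1e peak 2 and Pim2 peak 2 were not placed. The deposited sequence was 6 nt longer than the peak at either end in all 148. With those ends taken off, 75 of the 148 still held 2 copies, so in the others at least 1 pentamer reached into the added ends.

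Most neighbouring pentamers were set apart. Between neighbouring copies the median distance from start to start was 16 nt (quartiles 6 and 28.5, n = 163). In 33 of these pairs the copies overlapped and started 4 nt apart, in 30 the starts were 5 to 10 nt apart, and in 100 they were further apart. An overlapping pair was present in 33 of the 148 peaks, 22.3% (exact 95% interval 15.9 to 29.9%). The extended nonamer of AU-rich elements, TTATTTA followed by A or T at each of the next 2 positions, was present in 35 peaks, 23.6%. It contains the pentamer, so the 0.594% among the other 14486 peaks is no independent comparison. A further 86 peaks held the nonamer with a single pentamer, so the nonamer and the repeat shared 35 peaks, 28.9% of all nonamer peaks and 23.6% of the repeat peaks.

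The peaks with repeats were long and poor in G and C. Their median length was 55 nt (quartiles 49 and 75.25) against 51 nt in the other peaks, and their median GC content was 28.0% against 37.0%. Both quantities are tied to the rule, since longer and more AU-rich sequences can hold more copies. For that reason 4133 other peaks with a GC content of at most 31.8%, the upper quartile of the 148, served as a second reference. Their median GC content was 27.5% and their median length 50 nt.

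Position in the 3' UTR was not used by the rule. The peaks with repeats started at a median of 969.5 nt from the start of the 3' UTR (quartiles 422 and 1961), compared with 880 nt in the other peaks and 1030 nt in the AU-rich reference. Within the first 200 nt there were 18 of them, 12.2%, and 15.2% of the other peaks. Beyond 3000 nt there were 15, 10.1%, and 11.2% of the other peaks. Usp14 peak 1 was among the nearest to that start, at 11 nt, and Iws1 peak 3 was the most distant at 6764 nt. These medians and shares lay near each other, and peaks are not replicates, so no test was made.

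Other short motifs that do not need the pentamer were counted on the transcript strand only, and a match may share letters with a pentamer. The poly(A) signal AATAAA was present in 12.2% of the peaks with repeats, 9.55% of the other peaks and 18.9% of the AU-rich reference. Its variant ATTAAA was present in 9.46%, 4.65% and 9.32%, in the same order. The PUM-protein motif TGTANATA was present in 6.08%, 3.68% and 6.19%. The run TTTTT was present in 14.2%, 15.1% and 27.6%, and the GU-rich GTTTG in 8.11%, 9.57% and 9.10%. ATTAAA and TGTANATA were therefore at about the shares of the AU-rich reference, while AATAAA and TTTTT were below it. The rule puts at least 2 pentamers in each peak with repeats, and none of these motifs fits wholly inside a pentamer. The reference was chosen by GC content only, so these shares are not independent of the rule.

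Median reads per peak were close to those of the other peaks, and reads per nucleotide were lower. Reads are given as the authors' pooled, scaled values. The 148 peaks had a median of 15.4 scaled reads over both genotypes (quartiles 8.57 and 48.4), the other peaks 17.1 (7.89 and 40.8) and the AU-rich reference 17.4. On either side of the rule's limit, peaks with exactly 2 copies had a median of 15.3, peaks with 1 copy 18.1 and peaks with none 17.0, while the 13 peaks with 3 or 4 copies had 17.4. Reads per nucleotide were taken over the length from peak start to peak end, not over the deposited sequence. Their medians were 0.314 scaled reads in the peaks with repeats, 0.433 in the others and 0.454 in the AU-rich reference. Length is tied to the rule, so reads per nucleotide are not independent of it. Among peaks of 49 to 75.25 nt, the length quartiles of the 148, the median was 17.3 scaled reads with repeats. It was 18.5 in the other peaks and 18.3 in the AU-rich reference. At least 20 scaled reads were found in 58 peaks, 39.2%, compared with 45.1% of the others, and at least 100 in 14 peaks, 9.46%, compared with 9.59%.

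Together the 148 peaks held 4066 scaled reads in wild-type cells and 3999 in knockout cells, 1.08% of all reads. A single peak, Btg2 peak 15, carried 31.8% of this sum. Without it the sums were 3073 in wild-type cells and 2426 in knockout cells, so this 1 peak set the balance between the genotypes in the total. The 14 peaks with at least 100 scaled reads held 61.2%.

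**Figure D1:**
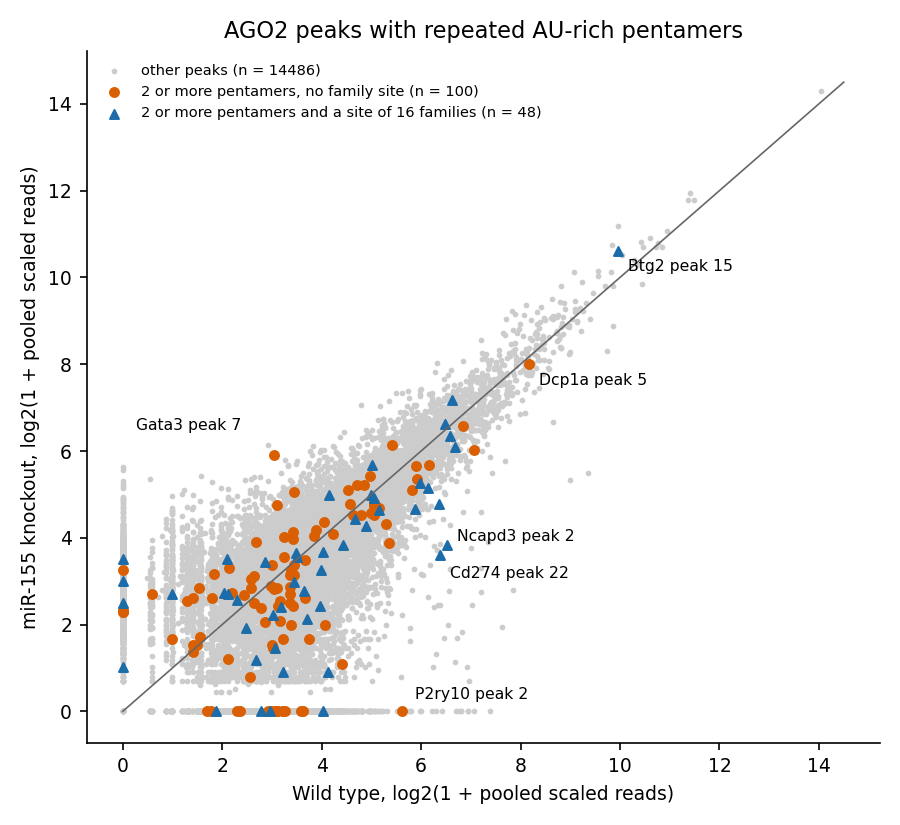
Pooled scaled reads of each AGO2 peak in wild type (horizontal axis) and in the miR-155 knockout (vertical axis), both as log2(1 + scaled reads), with the line of equal reads. Grey points are the 14486 other peaks, orange circles the 100 peaks with repeated pentamers and no site of the 16 microRNA families, and blue triangles the 48 with one. Among the peaks with repeats, Btg2 peak 15 stands far above the rest in reads, and P2ry10 peak 2 lies on the bottom edge, listed at 0 in the knockout.

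The comparison of genotypes asks how AGO2 binding at these peaks changed without miR-155. In the authors' deposited table the median log2 ratio, wild type over knockout, was 0.27 in the 148 peaks (quartiles -0.47 and 1.40). The same table gave 0.20 in the other peaks, 0.29 in the AU-rich reference, 0.23 in peaks with 1 copy and 0.19 in peaks with none. The value was higher in wild type for 93 peaks, 62.8%, against 56.3% of the others and 59.3% of the AU-rich reference. The distributions lay on each other over most of their range, and the pooled values gave no replicate spread against which to test the small shift.

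The median ratio was larger in peaks with few reads. The knockout was listed at 0 in 20 peaks, 13.5%, compared with 16.6% of the other peaks, and wild type in 8, 5.41%, compared with 7.89%. Among the 120 peaks with reads in both genotypes the median log2 ratio of the authors' deposited table was 0.23, and it was 0.07 in the 10978 others and 0.12 in 3175 of the AU-rich reference. The 90 peaks under 20 scaled reads had a median of 0.53 in the authors' deposited table, and the 14 with at least 100 had 0.26.

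**Figure D2:**
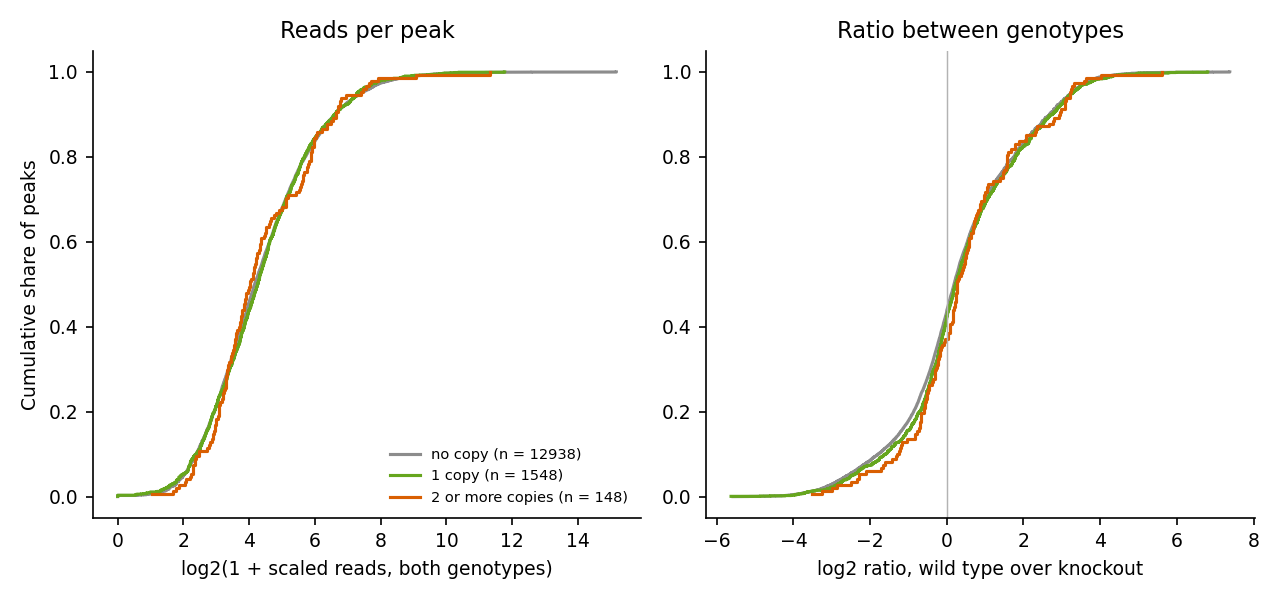
Cumulative share of peaks by scaled reads over both genotypes, as log2(1 + reads), on the left, and by the authors' deposited log2 ratio, wild type over knockout, on the right. Lines show peaks with no pentamer (grey, n = 12938), 1 copy (green, n = 1548) and 2 or more copies (orange, n = 148). The 3 lines run close together, with median reads of 17.0, 18.1 and 15.4.

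The authors' deposited p-value for differential binding, after Benjamini-Hochberg adjustment across the table's 14634 peaks, was below 0.05 for 1 of the 148 peaks in the direction of lower binding in the knockout. That is 0.676%, beside 0.574% of all peaks. None passed in the direction of higher binding in the knockout, beside 0.0273% of all peaks. With the unadjusted p of the authors' deposited table below 0.05, 5 were lower in the knockout, 3.38% beside 2.72% of all peaks, and 2 were higher, 1.35% beside 1.48%. The shares were near the background, and the counts do not set peaks with repeats apart.

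P2ry10 peak 2 was the peak that passed. P2ry10 encodes a G protein-coupled receptor of lymphocytes, and the peak had 48.3 scaled reads in wild-type cells and was listed at 0 in knockout cells. The log2 ratio in the authors' deposited table was 5.62, with a pseudocount in it, and the Benjamini-Hochberg adjusted p was 3.08e-07. Its 2 pentamers lay just upstream of the 6-nt miR-155 seed match shown above. The other 4 peaks of P2ry10 together had 272 scaled reads in wild-type cells and 57.5 in knockout cells, so the rest of the gene was also lower in the knockout in sum.

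A 7-nt or 8-nt miR-155 site was present in 3 of the 148 peaks, 2.03% (exact 95% interval 0.420 to 5.81%), compared with 1.81% of the other peaks. Cd274 peak 22, in the gene of the inhibitory ligand PD-L1, had 82.3 scaled reads in wild-type cells and 11.1 in knockout cells. Its site overlapped a pentamer by 1 nt, and in the authors' deposited table its p was 0.00975, which is 0.576 after Benjamini-Hochberg adjustment. The other 21 peaks of Cd274 had 929 and 837 scaled reads, so this difference was not seen over the rest of the gene. Sla peak 17, of the adaptor SLAP that restrains T cell receptor signalling, had 14.8 and 4.37. Wsb1 peak 1, of a SOCS-box ubiquitin ligase subunit, had 12.1 and 3.41, and its site also overlapped a pentamer by 1 nt. Neither passed the threshold, with a Benjamini-Hochberg adjusted p of 1.00 for each from the authors' deposited table. All 3 peaks were higher in wild type.

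Clec2i peak 8 and P2ry10 peak 2 held a 6-nt match only. Clec2i, which encodes a C-type lectin, had 9.80 scaled reads in wild-type cells and 14.6 in knockout cells at this peak, the opposite order. Over all 5 peaks with any miR-155 match the sum was 167 scaled reads in wild-type cells and 33.5 in knockout cells. The 143 peaks without one had 3899 and 3965, and a log2 ratio whose median from the authors' deposited table was 0.26, beside 0.17 in the 14124 other peaks without a match.

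The other 4 peaks with lower binding at the unadjusted threshold were Cd274 peak 22, described above, and peaks of Ncapd3, Zfp568 and Fam49b, which have no miR-155 match. Ncapd3 peak 2, of a condensin II subunit, had 90.7 scaled reads in wild-type cells and 13.3 in knockout cells, with a log2 ratio of 2.68 and a Benjamini-Hochberg adjusted p of 0.254 from the authors' deposited table. It held a miR-21 and a miR-27 site, and its gene had 24.6 and 6.68 scaled reads in its other peaks. Zfp568 peak 1, of a zinc finger repressor, had 20.2 and 1.11 scaled reads, with an adjusted p of 0.130 by the Benjamini-Hochberg method on the authors' deposited table. The other peaks of Zfp568 went the other way, with 23.0 and 50.4. Fam49b peak 4, named after its values were seen, had 39.7 and 13.8, with a p of 0.0481 in the authors' deposited table. Its other peaks had 51.7 and 33.8.

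Both peaks higher in the knockout at the unadjusted threshold failed adjustment. Btg2, an antiproliferative gene that also recruits the CCR4-NOT deadenylase, had 993 scaled reads in wild-type cells and 1573 in knockout cells at peak 15, with a deposited p of 0.0301 (the authors' deposited table), which is 0.999 after Benjamini-Hochberg adjustment. Its other 22 peaks had 4746 and 5521. Bbx peak 6, of an HMG-box protein, had 9.83 and 32.2, and its p of 0.0247 from the authors' deposited table became 0.883 after Benjamini-Hochberg adjustment. The other peaks of Bbx had 317 and 286, so its order was not that of the rest of the gene.

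A wide ratio did not always come with a small p. Pik3cd peak 1, of the catalytic PI3K subunit p110 delta, had 81.2 scaled reads in wild-type cells and 26.5 in knockout cells, a log2 ratio of 1.58, and the authors' deposited table gave a p of 0.545. Gata3 peak 7, of the factor that directs T helper 2 cells, had 7.24 and 58.8, the lowest log2 ratio among peaks of at least 20 scaled reads at -2.86, and a p of 0.0565 in the authors' deposited table. The other 10 peaks of Gata3 had 384 and 660 scaled reads. Nbr1 peak 2, of an autophagy receptor, followed with 7.56 and 26.1, and Mastl peak 5, of the mitotic Greatwall kinase, had 16.8 and 30.6. Aff4 peak 5, of a transcription elongation scaffold, had 8.51 and 15.2. None of these passed.

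**Figure D3:**
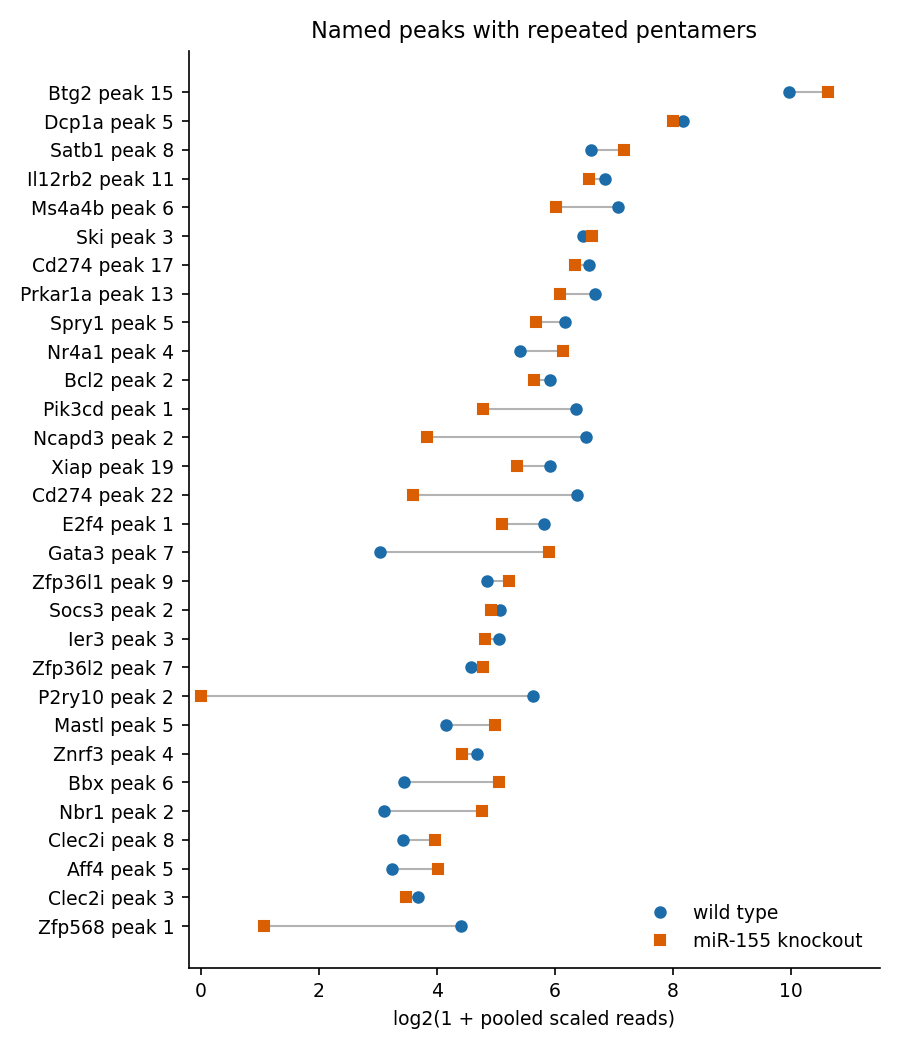
Pooled scaled reads of the 30 named peaks with at least 20 scaled reads over both genotypes, as log2(1 + reads), in wild type (blue circles) and the miR-155 knockout (orange squares), ordered by total reads. Most pairs lie close together, and P2ry10, Zfp568, Cd274 peak 22, Ncapd3 and Gata3 show the widest gaps.

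Genes that are known for AU-rich elements held a small number of the 148 peaks. Of 16 genes for AU-rich cytokines and chemokines that had any peak, 2 had a peak with repeats, and these were 2 of the 49 peaks of the list, 4.08% beside 1.01% of all peaks. Tnf peak 2, in the gene of the inflammatory cytokine TNF, held 4 pentamers in 36 nt with a GC content of 8.33%, the lowest of any peak. It had 16.5 scaled reads in wild-type cells and 0.868 in knockout cells, with a p of 0.163 in the authors' deposited table, and a miR-19 site 2 nt from the nearest pentamer. The other 3 Tnf peaks had 34.9 and 13.1. Tnfsf8 peak 9, of CD30 ligand, had 2.58 and 7.99. After Benjamini-Hochberg adjustment of the p in the authors' deposited table, 1 of the 49 peaks, Tnfsf9 peak 2, was lower in the knockout, 2.04% beside 0.574% of all peaks, and none was higher.

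The immediate-early and growth-response list had the most peaks with repeats, 4 of 241 peaks or 1.66% beside 1.01% of all peaks, in 4 of 35 genes. Beside Btg2 these were Nr4a1, Ier3 and Pim2. Nr4a1 peak 4, of a nuclear receptor induced by the T cell receptor, had 41.5 scaled reads in wild-type cells and 69.2 in knockout cells. Ier3 peak 3, of a stress-response regulator, held 3 pentamers and had 32.3 and 27.1. Pim2 peak 2, of a survival kinase, had 7.57 and 6.13. After Benjamini-Hochberg adjustment of the p in the authors' deposited table, 3 of the 241 peaks were lower in the knockout, in Cd69, Fosl2 and Trib1, which is 1.24% beside 0.574% of all peaks. None was higher, and none of the 4 peaks with repeats was called.

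Genes for 3 proteins that act in the decay of AU-rich transcripts held repeats. Among 22 genes for binding proteins of AU-rich elements and 3' UTRs, Zfp36l1 and Zfp36l2, both of the decay-promoting ZFP36 family, had 1 peak with repeats each, 2 of the list's 188 peaks or 1.06%. Zfp36l1 peak 9 had 27.9 scaled reads in wild-type cells and 36.2 in knockout cells, and Zfp36l2 peak 7, with 3 pentamers, had 22.8 and 26.6. Among 19 genes for deadenylation and decay, Dcp1a, a cofactor of the decapping enzyme, had 1 peak of the 107, 0.935%. Both shares were near the 1.01% of all peaks, so the counts do not set these lists apart. Dcp1a peak 5 was the second most read of the 148, with 286 and 255 scaled reads, and it held 78.7% of the reads of its gene. By the Benjamini-Hochberg adjusted p of the authors' deposited table, 2 of the 188 peaks, both in Rc3h2, were lower in the knockout, 1.06% beside 0.574% of all peaks, and none of the 107 was. None was higher in either list, and none of these 3 peaks with repeats was called.

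The remaining lists had at most 2 peaks with repeats each. Such peaks were 0.990% of the cytokine receptor list, 0.913% of the apoptosis list and 0.498% of the cell cycle list, beside 1.01% of all peaks. In the cytokine receptor and JAK-STAT list, with 202 peaks in 31 genes, they were in Il12rb2, a subunit of the interleukin-12 receptor, and Socs3, an inhibitor of JAK signalling. Il12rb2 peak 11 had 114 scaled reads in wild-type cells and 94.1 in knockout cells and was the most read of the 11 peaks of its gene. Socs3 peak 2 had 32.4 and 29.1. In the apoptosis list, with 219 peaks in 18 genes, they were in the survival genes Bcl2 and Xiap. Bcl2 peak 2 had 59.0 and 49.3, and Xiap peak 19 had 59.5 and 39.9. In the cell cycle list, with 201 peaks in 31 genes, Ccne2 peak 12, of cyclin E2, had 3.62 and 5.60. Adjusted by the Benjamini-Hochberg method, the p of the authors' deposited table called none of these 5 peaks. It called 1 peak of the apoptosis list, in Hif1a, and 1 of the cell cycle list, in E2f2, as lower in the knockout, 0.457% and 0.498% beside 0.574% of all peaks. It called none of the cytokine receptor list, and none of the 3 lists as higher.

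Other lists had none. No peak with repeats was found among the peaks of 9 microRNA pathway genes, the 181 peaks of 27 T cell receptor and costimulation genes or the 89 peaks of 17 NF-kB genes. At the 1.01% found over all peaks, lists of this size would hold few such peaks, so a count of 0 says little. By the adjusted p of the authors' deposited table (Benjamini-Hochberg), 2 peaks of the NF-kB list (Map3k14 and Peli1), 2.25% beside 0.574% of all peaks, and none of the microRNA pathway list were lower in the knockout, and none of either list was higher.

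The labelled cell type was checked in the table. Of 12 CD4 T cell markers, 10 had peaks, with 13916 scaled reads together. Of 10 B cell markers 2 had peaks, 1 of 10 CD8 and NK cell markers had a peak, with 67.9 scaled reads, and none of 12 myeloid markers had a peak. A gene without an AGO2 peak may still be expressed. Among the CD4 T cell markers, the chromatin organiser Satb1 had the list's 1 peak with repeats, 0.917% of its 109 peaks beside 1.01% of all peaks. Satb1 peak 8 had 97.2 scaled reads in wild-type cells and 144 in knockout cells, and the other 21 peaks had 1292 and 2335, the same order. By the Benjamini-Hochberg adjusted p of the authors' deposited table, 1 of the 109 peaks of the CD4 T cell list, in Icos, was lower in the knockout, 0.917% beside 0.574% of all peaks.

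Further well-read peaks came from genes outside the lists. Ms4a4b peak 6, of a T cell membrane protein, had 134 scaled reads in wild-type cells and 63.6 in knockout cells, while the other 5 peaks of the gene had 445 and 523. Ski peak 3, of a repressor of SMAD signalling, had 87.9 and 97.9 and was the most read of its 12 peaks. Cd274 peak 17, with a miR-15/16 site, had 94.4 and 79.9. The values of Ms4a4b differed in the opposite direction from the rest of its gene, yet the p in the authors' deposited table was 0.933. Prkar1a peak 13, of a regulatory subunit of protein kinase A, had 102 and 67.0 and held a miR-25/92 site across a pentamer. Spry1 peak 5, of an inhibitor of receptor tyrosine kinase signalling, had 70.7 and 50.3.

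Peaks with the most pentamers were not the most read. Cyfip2 peak 1, of a WAVE complex subunit, held 4 pentamers and had 1.67 scaled reads in wild-type cells and 1.90 in knockout cells, as the only peak of its gene. E2f4 peak 1, of a repressive E2F factor, held 3 and had 55.4 and 33.5, the highest sum among the 13 peaks with 3 or 4 copies. Znrf3 peak 4, of a ubiquitin ligase that removes Wnt receptors, held 3 and had 24.6 and 20.6. The 13 peaks with 3 or 4 copies had between 3.57 and 88.9 scaled reads. Their median of 17.4 was not below the 15.3 of peaks with exactly 2 copies.

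Outside Cd274, the genes with 2 such peaks had at most 24.4 scaled reads over both genotypes in either peak. Arl5b, of a small GTPase, had 6.93 and 6.45 scaled reads in wild type and knockout at peak 6, and 5.90 and 4.22 at peak 8. Clec2i peak 3 had 11.8 and 10.2. Inpp4a, of a phosphoinositide phosphatase, had 3.43 and 8.84 at peak 4 and 7.51 at peak 8, which was listed at 0 in the knockout, so its peaks had opposite orders. Iws1, of a transcription elongation cofactor, had 9.95 and 9.32 at peak 1 and 4.44 and 5.41 at peak 3. Both peaks of a gene share its transcript and are not independent.

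In most genes the peak with repeats was 1 of several. It was the only peak in 13 genes and the most read of several in 19. Its share of the reads of its gene had a median of 11.4% (quartiles 3.80 and 27.1%) among the 135 peaks in genes with other peaks, and 12 of them held more than 50%. Genes with such a peak had a median of 5 peaks, and the other genes 2. A gene with more peaks has more chances to hold such a peak, so this difference is tied to the choice of peaks. Among 55 peaks with neighbours and at least 20 scaled reads, the log2 ratio exceeded that of the rest of the gene in 28 and fell short in 27. The median difference was 0.04 (quartiles -0.49 and 0.73), so the ratio was as often above as below that of the same transcript.

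The share of peaks with a microRNA family site was close to that of the other peaks, and sites per nucleotide were fewer. A 7-nt or 8-nt site of any of 16 families was present in 48 of the 148 peaks, 32.4% (exact 95% interval 24.98 to 40.6%). The share was 35.3% in the other peaks, 32.7% in peaks with 1 copy and 30.8% in the AU-rich reference. The intervals cover counting error only. Per 1000 nt of sequence there were 5.65 sites in the peaks with repeats, 7.62 in the other peaks and 6.62 in the AU-rich reference. The rule puts at least 2 pentamers in each peak, and no site of the 16 families contains a whole pentamer. Sites per nucleotide are therefore not independent of the rule. Among peaks of 49 to 75.25 nt, the length quartiles of the 148, 22 of 77 with repeats held a site, 28.6% (18.8 to 40.0%), compared with 37.8% of the other peaks and 31.2% of the AU-rich reference.

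**Figure D4:**
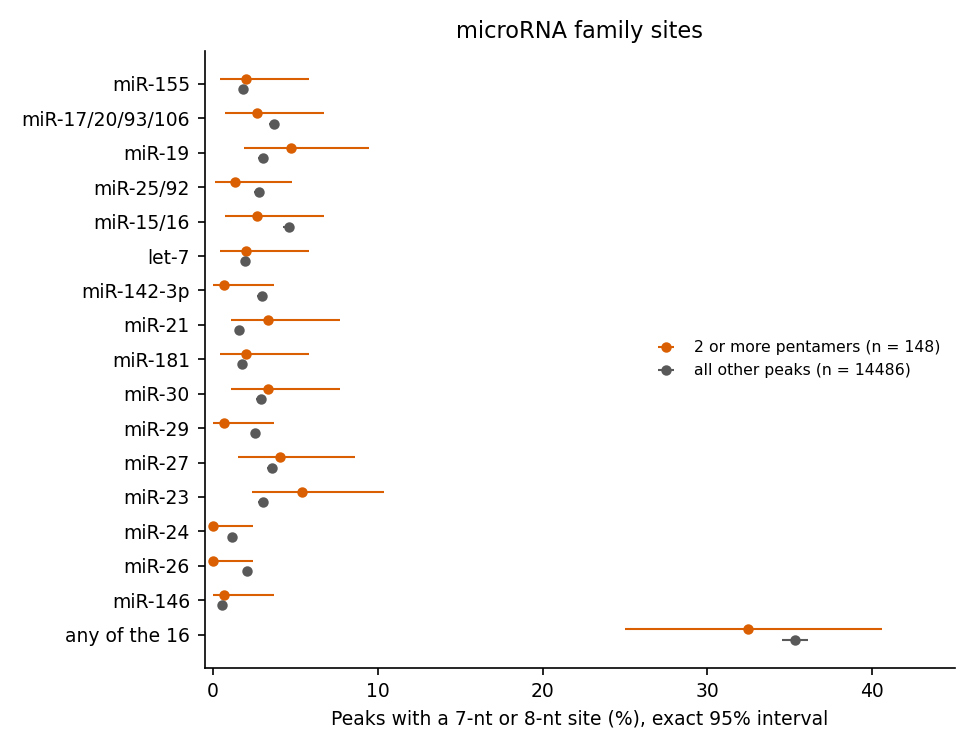
Share of peaks with a 7-nt or 8-nt site of each of 16 microRNA families and of any of them, in percent, for the 148 peaks with repeated pentamers (orange) and the 14486 other peaks (grey), with exact 95% intervals. The intervals for single families are wide, and for any family the points are 32.4% and 35.3%.

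By family, miR-23 sites were the most frequent, in 8 of the 148 peaks, 5.41% (exact 95% interval 2.36 to 10.4%), compared with 3.02% of the other peaks. miR-19 sites followed in 7, 4.73% (1.92 to 9.50%) against 3.03%, and miR-27 sites in 6, 4.05% against 3.59%. miR-21 and miR-30 sites were present in 5 each, 3.38%, against 1.58% and 2.92%. In each of these families the share in the other peaks lay inside the interval, so no difference was detectable at this number of peaks. miR-17 and miR-15/16 sites were present in 4 peaks each, 2.70% against 3.72% and 4.60%. Sites of let-7 and miR-181 were in 3 each, of miR-25/92 in 2, and of miR-142-3p, miR-29 and miR-146 in 1 each. No miR-24 or miR-26 site was found, and 0 of 148 allows up to 2.46% by the exact interval, compared with 1.14% and 2.06% in the other peaks.

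Peaks with a site had higher median reads in both sets. The 48 peaks with repeats and a site had a median of 18.3 scaled reads and the 100 without one 13.5. In the other peaks the medians were 23.7 with and 14.7 without a site. The median log2 ratios in the authors' deposited table were 0.54 and 0.25 in the peaks with repeats, with and without a site, and 0.14 and 0.22 in the others.

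Inside the peaks, sites lay nearer the centre than pentamers. In the 48 peaks, the centres of 53 sites were a median of 9.5 nt from the centre of the sequence, and 52.8% were within 10 nt. The 101 pentamers of the same peaks were a median of 15.5 nt from it, and 29.7% were within 10 nt. Over all 148 peaks the median of 311 pentamers was 15 nt, and in peaks with a single copy it was also 15 nt. For comparison, 5862 sites over all peaks of the table had a median of 6 nt, and 65.6% of them were within 10 nt. The rule asks for at least 2 pentamers per peak, which cannot all lie at the centre, so their distance is partly tied to the rule. Points in 1 peak share its sequence and are no replicates, so the medians are descriptions.

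**Figure D5:**
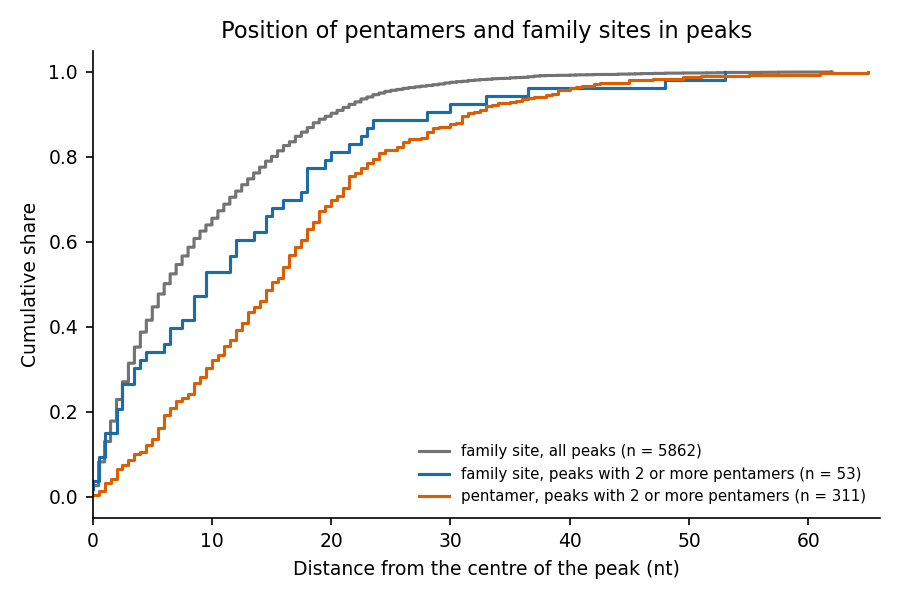
Cumulative share of pentamers and microRNA family sites by their distance in nt from the centre of the deposited peak sequence. Lines show family sites in all peaks (grey, n = 5862), family sites in peaks with repeated pentamers (blue, n = 53) and pentamers in those peaks (orange, n = 311). The pentamer line lies lowest over the first 30 nt, with a median of 15 nt against 9.5 nt for the sites of the same set.

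The gap between a site and its nearest pentamer was short. Its median was 2 nt (quartiles -1 and 7, n = 53, negative values meaning overlap), 14 sites overlapped a pentamer by 1 or 2 nt, and 31 were 0 to 10 nt away. The nearest pentamer lay 3' of the site in 27 cases and 5' in 26, about equal numbers. Most peak sequences are about 50 nt long and hold 2 pentamers by the rule, which bounds the gap. The overlaps arose where the closing letters of a site opened a pentamer, as in the Btg2, Ski and Wsb1 windows above, or where the final letters of a pentamer opened a site. Among the overlapping sites were those in Btg2 and Ski, with 2566 and 186 scaled reads over both genotypes.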

How the data were processed

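Bowtie 0.12.7 and the mm9 build are named in the submitters' processing notes. The sources used here do not say how peaks were called, reads scaled or p-values computed. Per the file headers, the deposited values of the authors' table are log2 reads per genotype, their log2 ratio (wild type over knockout), a p-value for differential binding, positions counted from the start of the 3' UTR, and the sequence. The authors' deposited log2 reads were read as log2(1 + scaled reads), a pseudocount of 1 inferred from the values, and reversed. This makes ratios at low reads too small.

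Values are pooled by genotype, so the test over libraries with a linker term that had been planned was not possible. Sequencing depth is unknown. The deposited p-value received a Benjamini-Hochberg adjustment across all 14634 peaks, and 0.05 was the threshold. What spread between libraries it reflects is unknown.

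Pentamers were counted on the deposited sequence with overlap. Sites of 16 microRNA families were 7 or 8 nt long, and shares have exact (Clopper-Pearson) 95% intervals. Genome positions come from exact matches to GENCODE M21 transcripts on GRCm38, not on the authors' mm9. No placed member's sequence matched a transcript of another gene. The sequence of D14Abb1e peak 2, which was not placed, matched a transcript listed under the symbol Fam208a.

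The members, the 14 gene lists and the rule for named peaks were chosen with earlier results of these data known. Named were peaks past the threshold, the 10 genes with the most reads in a peak, the 5 highest and 5 lowest ratios (1 peak per gene, at least 20 scaled reads), the 6 peaks with the most pentamers, peaks with a miR-155 site and at least 20 scaled reads, up to 4 genes per list and up to 5 genes with the most such peaks. Sla, Wsb1, AI504432, Cep55, D14Abb1e, Usp14 and Fam49b, and called peaks of the lists that are no members, were named after seeing their values. The alternatives were other pentamer and site definitions, a minimum of 10 scaled reads, no pseudocount and other thresholds. Python 3.11.15 was used with NumPy 2.4.6, SciPy 1.17.1, pandas 2.3.3 and Matplotlib 3.10.9. The scripts were tested on simulated data.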

Additional observations from a re-analysis of the deposited data

How the results depend on the processing

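Of 35 alternatives, 29 left the value within the limits set for it. The number of peaks with repeats was 75 with 6 nt taken off each end of the sequence and 13 when 3 or more copies were required. The median was 27.1 scaled reads when at least 10 were required, and that of the other peaks 29.1. The share with a site of any family was 10.8% with 8-nt sites only (11.9% of the other peaks) and 45.3% with 6-nt matches too (46.9%). The share with a miR-155 site was 0% among the 13 peaks with 3 or more copies and 4.96% among the 121 peaks with a nonamer (1.78% of the other peaks). The 1 called peak was called at thresholds of 0.01 and 0.1 and by Bonferroni adjustment. Without the pseudocount, 39 of 39 named ratios kept their sign. The comparison at like length and the values without Btg2 peak 15 were added after seeing the data. No paired analysis was possible because the table pools the libraries of each genotype, and leaving out single libraries was not run for the same reason. The unknown depth leaves peaks with few reads without an error.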
